A study of Homo sapiens with 6 samples.

Results

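The basement membrane is the thin sheet of matrix on which epithelial cells sit, and 37 genes that encode its proteins were followed in SW620, a human cell line established from a lymph node metastasis of colorectal cancer. They were taken by gene symbol from a fixed list of type IV collagens, laminins, nidogens, hemicentins, heparan sulfate proteoglycans and associated proteins, all of them found among the 60605 genes of the deposited table. Cells transduced with a lentivirus carrying ELAPOR1, which encodes a membrane protein of endosomes and lysosomes (3 libraries), were compared with cells transduced with the empty pLVX-IRES-Puro vector (3 libraries). In both groups the virus was given at a multiplicity of infection of 20, cells were kept under puromycin at 2 ug/ml for selection, and the medium held 10% serum. The labels leave unsaid if the selected cells were a pool or a clone, and if the 3 libraries of a group came from separate cultures, so p-values reflect only how these libraries vary, and that variation may be technical.

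A basement membrane is built from a laminin network, in which each laminin is a trimer of an alpha, a beta and a gamma chain, and from a type IV collagen network, whose most widespread form combines chains encoded by COL4A1 and COL4A2. Nidogens and the proteoglycans perlecan and agrin link the networks, the peroxidase peroxidasin cross-links collagen IV, and dystroglycan and integrins anchor the cell to laminin. Hemicentins are very large matrix proteins made mainly of immunoglobulin repeats, known for fixing cells and adjoining basement membranes to each other. In the gut, laminins with the LAMA5 and LAMA3 chains are components of the epithelial basement membrane.

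Total counts ranged from 16401813 to 20571924 per library. ELAPOR1 itself had 8.73 to 11.5 CPM in the vector libraries and 20772 to 21494 CPM in the ELAPOR1 libraries. CPM are counts scaled to the library's total after its adjustment by a TMM factor. Reads from the construct cannot be told from those of the endogenous gene. The epithelial markers EPCAM, KRT8 and KRT18 averaged 441, 4163 and 2425 CPM in vector cells and 435, 3782 and 2381 CPM in ELAPOR1 cells. The 8 epithelial markers summed to 8435 to 8830 CPM in vector and 7853 to 7866 CPM in ELAPOR1 libraries. By edgeR (adjusted p under 0.05) 1 of the 8 was higher and 4 lower, against 10.0% and 11.4% over all tested genes. CDH17 rose by 1.05 on the log2 scale, and CDH1, CDX2, KRT19 and KRT8 changed by -0.76, -0.56, -0.45 and -0.14. Among markers of other cell types that make basement membrane, COL1A2, COL3A1 and DCN of fibroblasts had 1, 1 and 2 counts over all 6 libraries. CDH5, KDR and TEK of endothelium had 0. Others were not as low, with 275 counts in all for COL1A1, 139 for PECAM1 and 136 for VWF. The 10 fibroblast markers summed to 17.9 to 19.03 CPM in vector and 25.5 to 30.996 CPM in ELAPOR1 libraries, mostly from LUM, and 2 of the 4 tested rose. The 6 endothelial markers summed to 2.47 to 2.73 and 1.97 to 2.81 CPM, the 5 immune markers to 5.18 to 7.61 and 7.13 to 7.995 CPM, and the 5 smooth muscle and pericyte markers to 5.70 to 7.15 and 7.93 to 8.25 CPM, with no tested marker called in these 3 lists. The part of these shifts in the results was not tested, and in such bulk libraries fewer cells of a type and less RNA per cell cannot be told apart.

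Of the 37 genes, 16 were expressed at a mean of at least 1 FPKM (fragments per exonic length and library total, the authors' values) in at least 1 group, 7 were below that level but had enough counts to be tested, 6 had too few counts to be tested, and 8 had at most 3 counts in every library. The largely silent 8 were HMCN2, COL4A5, COL4A6, LAMA1, LAMA4, COL15A1, FREM1 and NPNT. The members with the highest mean FPKM in vector cells were LAMB3 at 24.1 ± 0.823, DAG1 at 22.96 ± 0.459, COL18A1 at 15.9 ± 0.992, TINAGL1 at 14.1 ± 0.513 and AGRN at 8.66 ± 0.244 (SD, n = 3 each). All members together made up 0.116% to 0.121% of the counts of every library in either group. HMCN1 contributed 0.00508% to 0.0259% of the members' counts in vector libraries and 4.25% to 4.45% in ELAPOR1 libraries.

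**Figure D1:**
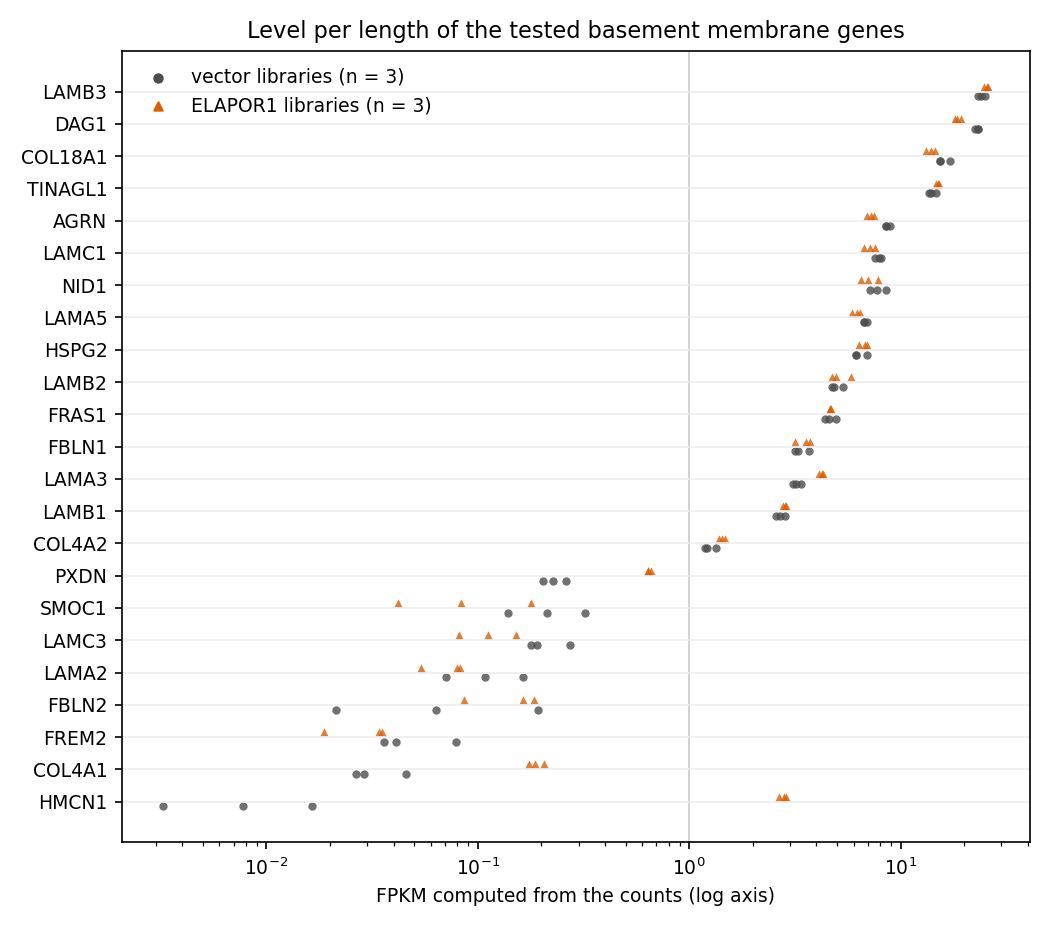
FPKM computed from the counts (log axis) for the 23 tested basement membrane genes, with 1 point per library, ordered by the vector mean; grey circles are vector and orange triangles ELAPOR1 libraries, and the line marks 1 FPKM. HMCN1 stood lowest of all in vector cells and between 2.67 and 2.86 FPKM in ELAPOR1 cells, while most genes above 1 FPKM had points of the groups close together.

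In edgeR's quasi-likelihood test, 5 of the 23 tested members rose in ELAPOR1 cells and 3 fell (adjusted p under 0.05 over all 16003 genes tested). Over all tested genes the same rule called 21.4%, with 10.0% higher and 11.4% lower. The genes that rose were HMCN1, COL4A1, PXDN, LAMA3 and COL4A2, and those that fell were DAG1, AGRN and COL18A1. A rise of at least 1 on the log2 scale was seen for 3 members, against 1.50% of all tested genes. The median log2 fold change was 0.07 over the tested members and 0.00407 over all tested genes. The groups did not overlap for 13 of the 23, against 33.8% of all tested genes. Of the members that rose, HMCN1 and COL4A1 had 1 to 6 and 7 to 13 counts per vector library. They passed the count filter through the ELAPOR1 libraries, where they were high, so their place among the tested members depended on their rise. These counts of members are therefore no separate support for a rise of the set. The rise of HMCN1, 8.17 on the log2 scale, was followed by those of COL4A1 and PXDN at 2.49 and 1.51.

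**Figure D2:**
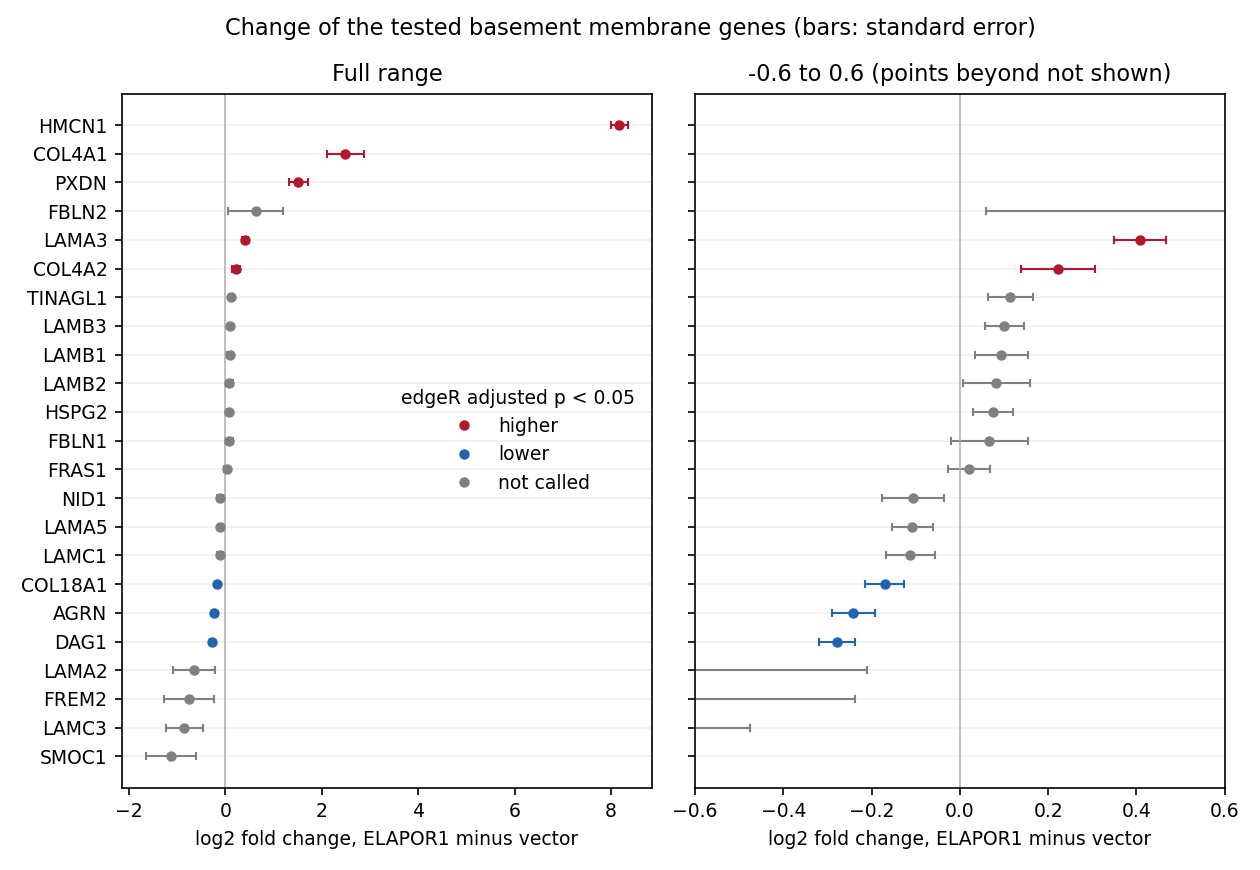
Log2 fold change of ELAPOR1 minus vector with its standard error for the 23 tested members, over the full range (left) and between -0.6 and 0.6 (right, where bars end at the frame and points beyond it are not drawn); red marks genes called higher, blue lower and grey not called by edgeR. HMCN1 at 8.17 stands apart, COL4A1 and PXDN follow at 2.49 and 1.51, and most of the others lie between -0.3 and 0.3.

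The promoters of the other genes that rose are shown because the COL4A1 and COL4A2 starts face each other across 127 bases yet their counts changed to different extents, and because LAMA3 has separate starts for its long and short transcripts. RefSeq windows (GRCh38.p14, 250 bases before to 50 after the start) matched 33 of the 37 members; HMCN1, AGRN, LAMA1 and LAMC3 were not matched. Sequences run 5′ to 3′ on the strand of the gene, and capitals mark the GC box motif GGGCGG and the AP-1 motif TGANTCA on either strand. The COL4A1 window lies at chr13:110307108-110307407 on the minus strand, that of COL4A2 at chr13:110307034-110307333 on the plus strand, PXDN at chr2:1744466-1744765 on the minus strand and LAMA3 at chr18:23872770-23873069 on the plus strand. The COL4A1 and COL4A2 windows share 226 bases.
COL4A1: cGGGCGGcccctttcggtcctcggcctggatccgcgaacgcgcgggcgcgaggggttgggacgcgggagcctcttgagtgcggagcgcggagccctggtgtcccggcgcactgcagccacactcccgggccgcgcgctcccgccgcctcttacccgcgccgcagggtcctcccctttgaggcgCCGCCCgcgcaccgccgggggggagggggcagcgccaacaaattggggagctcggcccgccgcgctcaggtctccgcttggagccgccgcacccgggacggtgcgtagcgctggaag
COL4A2: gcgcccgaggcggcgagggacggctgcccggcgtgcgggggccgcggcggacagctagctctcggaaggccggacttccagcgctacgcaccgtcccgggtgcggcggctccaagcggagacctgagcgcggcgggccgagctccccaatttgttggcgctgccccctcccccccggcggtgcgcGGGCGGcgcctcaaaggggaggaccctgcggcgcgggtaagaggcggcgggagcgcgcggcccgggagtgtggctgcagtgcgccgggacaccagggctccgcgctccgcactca
PXDN: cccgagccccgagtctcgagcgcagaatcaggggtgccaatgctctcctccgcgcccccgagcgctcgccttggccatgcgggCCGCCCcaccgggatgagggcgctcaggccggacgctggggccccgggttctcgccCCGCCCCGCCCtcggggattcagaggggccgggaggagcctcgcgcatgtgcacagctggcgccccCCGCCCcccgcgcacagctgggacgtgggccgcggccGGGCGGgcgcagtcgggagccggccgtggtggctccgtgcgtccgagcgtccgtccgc
LAMA3: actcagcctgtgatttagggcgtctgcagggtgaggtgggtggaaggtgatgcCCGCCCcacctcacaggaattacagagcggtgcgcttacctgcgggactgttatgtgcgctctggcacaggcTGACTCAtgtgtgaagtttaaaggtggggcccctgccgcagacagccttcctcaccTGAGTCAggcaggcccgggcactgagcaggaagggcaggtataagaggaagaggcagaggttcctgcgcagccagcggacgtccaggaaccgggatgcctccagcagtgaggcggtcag
The GC box was found in all 4 windows, in 30 of the 44 windows of members and in 44.9% of 34796 distinct windows in the table. PXDN held 5 matches, COL4A1 2, and COL4A2 and LAMA3 1 each. The AP-1 motif was found 2 times in the LAMA3 window, not in those of COL4A1, COL4A2 and PXDN, in 4 of the 44 member windows and in 7.73% of all windows. A TATAAA box was in none of the 4 printed windows, in 2 of the 44 and in 11.6% of all. CCAAT was in 17 of the 44 and 34.6% of all, GGAATG in 5 and 14.04%, and ACGTG in 5 and 21.4%. These matches describe letters and not binding. The LAMA3 window belongs to a start 184 kb inside the gene's span in the deposited table, that of its short transcript, and gene counts do not separate the transcripts.

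HMCN1 (ENSG00000143341, GRCh38 chromosome 1, 185734391 to 186190949, plus strand, 18739 exonic bases) encodes hemicentin-1. Its counts were 6, 3 and 1 in the vector libraries and 822, 1032 and 949 in the ELAPOR1 libraries. On the CPM scale these were 0.307, 0.145 and 0.0606 against 50.6, 53.9 and 53.2, so that every ELAPOR1 library lay far above every vector library. The ratio of summed counts was 299, with an exact 95% interval of 162 to 624 that covers counting error only. By edgeR the log2 fold change was 8.17 ± 0.18 (SE) with an adjusted p of 3.05e-50, and 8.84 without vector replicate 1, which held 6 of the 10 vector counts. Per length, HMCN1 moved from the 29th to the 15th place among the 37 members, from a level close to silent to 2.67, 2.86 and 2.82 FPKM, a mean between those of COL4A2 and LAMB1. The only gene with counts inside its span, an unnamed gene on the other strand (ENSG00000224691), had 0 counts in vector and 5 in ELAPOR1 libraries.

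The tested genes around HMCN1 changed far less. Of 10 other tested genes within 1000 kb, log2 fold changes ran from -0.60 for NIBAN1 to 1.10 for an unnamed gene with 82 counts in all (edgeR's adjusted p = 0.460 and 0.105). TPR, a nuclear pore gene downstream of HMCN1, rose by 0.19, TRMT1L rose by 0.21 and IVNS1ABP fell by 0.14 on the log2 scale. Of the 10 genes only these were called, where 21.4% of all tested genes were. TPR had an adjusted p of 1.15e-05 by edgeR and kept its call in all 17 alternative fits. By edgeR the call of IVNS1ABP was lost without vector replicate 1 (adjusted p = 0.0569) or ELAPOR1 replicate 3 (0.113). That of TRMT1L was lost without vector replicate 1 (0.0711), vector replicate 3 (0.145) or ELAPOR1 replicate 1 (0.275), where its log2 fold change was 0.13. The paralog HMCN2 had 2, 0 and 0 counts in vector and 0, 2 and 0 in ELAPOR1 libraries, so no change was detectable at this depth.

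**Figure D3:**
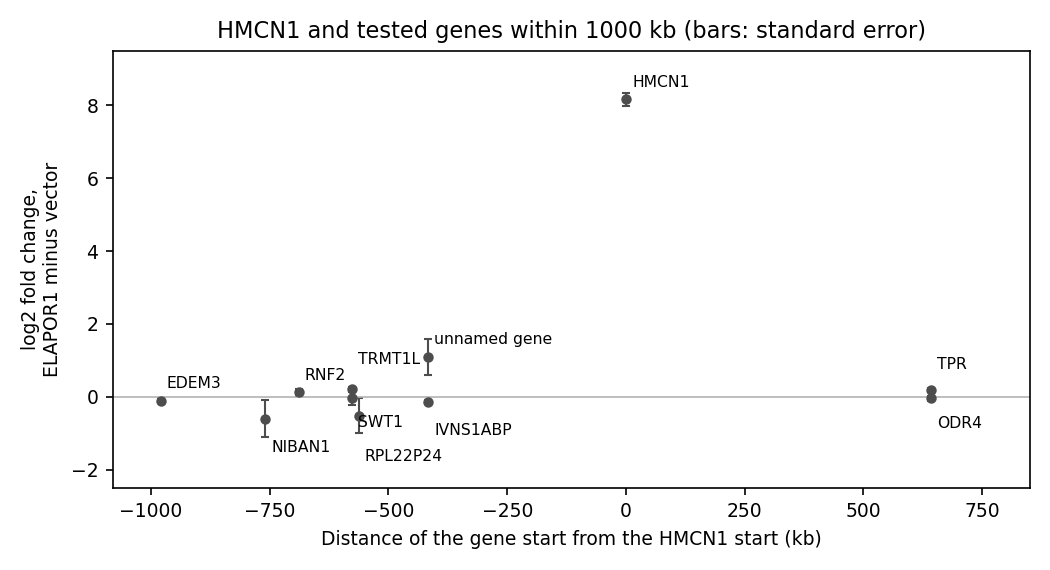
Log2 fold change with its standard error of HMCN1 and the 10 other tested genes within 1000 kb, against the distance of each gene's start from that of HMCN1. HMCN1 stands at 8.17 and all the others between -0.60 and 1.10.

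Among the 6 type IV collagen genes, only COL4A1 and COL4A2 had enough counts to be tested. Both were called higher, as were 10.0% of all tested genes, but COL4A1 passed the count filter only through its ELAPOR1 libraries. The calls are therefore given gene by gene and not as a result about the family. COL4A1 (chromosome 13, 110148963 to 110307157, minus strand) had 13, 8 and 7 counts in vector and 45, 58 and 46 in ELAPOR1 libraries, that is 0.664, 0.387 and 0.425 CPM against 2.77, 3.03 and 2.58 CPM. The groups were well apart, and the log2 fold change was 2.49 ± 0.39 (SE) with an adjusted p of 5.12e-07 by edgeR. The ratio of summed counts was 5.67, with an exact 95% interval of 3.77 to 8.82 for counting error only. Even so, COL4A1 remained low per length, at 0.19 ± 0.02 FPKM in ELAPOR1 cells (SD, n = 3).

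COL4A2 (chromosome 13, 110305812 to 110513209, plus strand) had 25.5, 23.3 and 22.7 CPM in vector and 27.1, 28.7 and 27.8 CPM in ELAPOR1 libraries. The groups did not overlap but lay close, and its log2 fold change was 0.22 ± 0.08 (SE), with edgeR's adjusted p = 0.0462. This call was lost in 11 of 17 alternatives, with adjusted p = 0.132 in DESeq2's default test. The authors' deposited comparison, a Wald test that is not among these 17, gave adjusted p = 0.0497, just under the limit. By edgeR the adjusted p was 0.134 and 0.170 when vector replicates 2 and 3 were dropped in turn. It was 0.0645, 0.148 and 0.0999 when ELAPOR1 replicates 1, 2 and 3 were. Counts per exonic length of COL4A2 exceeded those of COL4A1 by 29.2, 45.8 and 40.7 times in vector libraries and by 7.44, 7.20 and 8.19 times in ELAPOR1 libraries. The genes thus differed in how far they rose, as the ratio fell in each ELAPOR1 library below each vector library.

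The spans of COL4A1 and COL4A2 overlap by 1346 bases on opposite strands in the deposited table, with 0 shared exonic bases in GENCODE 29, which may not be the annotation used for counting. COL4A2 also contains COL4A2-AS2 on the other strand, with 57 counts in vector and 101 in ELAPOR1 libraries, a log2 change of 0.91 (edgeR's adjusted p = 0.0785) and 14 shared exonic bases. COL4A2-AS1, on that same strand, shares 81 exonic bases with COL4A2. It had 17 counts in vector and 29 in ELAPOR1 libraries, too few to be tested. The head to head pair COL4A3 and COL4A4, chains of the kidney glomerulus, had 2 to 8 and 0 to 7 counts per library. The pair COL4A5 and COL4A6 on chromosome X had at most 1 count in any library.

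**Figure D4:**
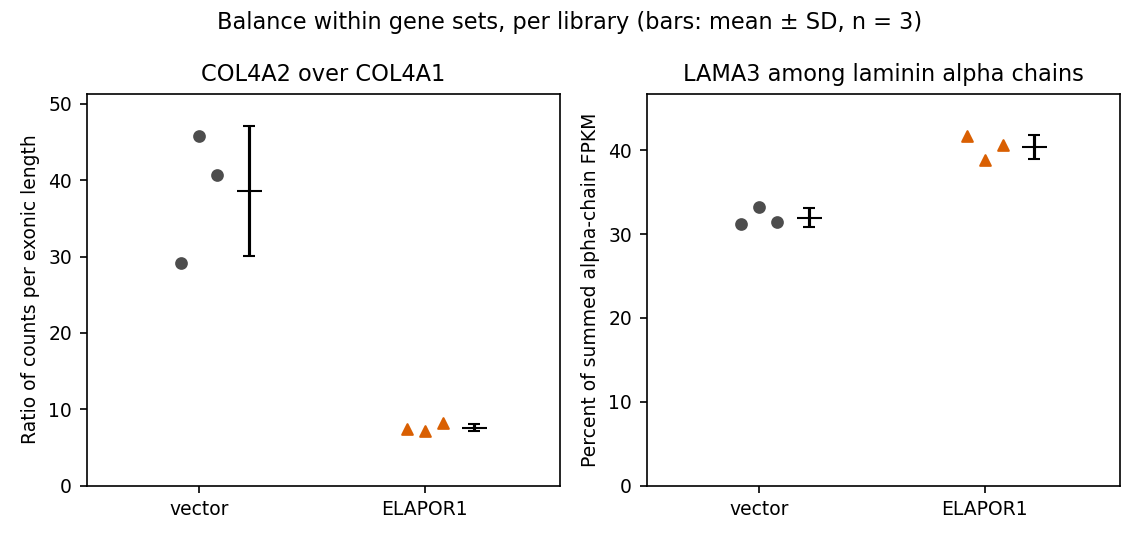
Left, the ratio of COL4A2 to COL4A1 counts per exonic length in each library; right, the percent of summed laminin alpha-chain FPKM that comes from LAMA3; bars are mean ± SD of 3 libraries. The ratio lies between 29.2 and 45.8 in vector and between 7.20 and 8.19 in ELAPOR1 libraries, and the LAMA3 share between 31.2% and 33.3% and between 38.8% and 41.7%.

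PXDN (chromosome 2, 1631887 to 1744852, minus strand) encodes peroxidasin, which forms the sulfilimine cross-links of collagen IV. It had 2.91, 2.28 and 2.55 CPM in vector and 7.26, 7.47 and 7.29 CPM in ELAPOR1 libraries, from 57, 47 and 42 counts against 118, 143 and 130. Each ELAPOR1 library was above every vector library, and PXDN rose 2.85-fold, by 1.51 ± 0.19 (SE) on the log2 scale with an adjusted p of 2.47e-09 by edgeR. Per length PXDN stayed under 1 FPKM, at 0.23 ± 0.03 in vector and 0.647 ± 0.0115 in ELAPOR1 cells (SD, n = 3 each). With limma on log2(FPKM + 0.1) its log2 change was 1.18 and it was not called (adjusted p = 0.0578).

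Of the 10 laminin genes, 8 were tested and LAMA3 alone was called. LAMA3 (chromosome 18, 23689453 to 23956222, plus strand), the alpha chain of the laminin that anchors epithelial hemidesmosomes, had 44.6, 48.9 and 46.2 CPM in vector and 62.6, 60.1 and 62.9 CPM in ELAPOR1 libraries. It rose 1.33-fold, by 0.41 ± 0.06 (SE) on the log2 scale with an adjusted p of 6.74e-08 by edgeR. LAMB3, its beta partner, had 23.4, 24.1 and 24.99 FPKM in vector and 26.1, 24.8 and 25.6 FPKM in ELAPOR1 libraries, so that the ranges overlapped on this scale. On the CPM scale, which the count of groups that do not overlap uses, they lay just apart, from 107.6 to 115.5 in vector and from 115.9 to 122.5 in ELAPOR1 libraries. The log2 fold change was 0.10 ± 0.04 (SE), with edgeR's adjusted p = 0.0916.

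LAMA5, the alpha chain of the widespread epithelial laminins, stood at 94.9, 95.1 and 98.3 CPM in vector and 85.1, 92.2 and 90.002 CPM in ELAPOR1 libraries. All ELAPOR1 values were below all vector values, but the log2 fold change of -0.11 ± 0.05 (SE) had an adjusted p of 0.0988 by edgeR, and 0.0398 with library sizes alone as scaling. LAMA3 made up 31.2%, 33.3% and 31.5% of the summed alpha-chain FPKM in vector libraries and 41.7%, 38.8% and 40.6% in ELAPOR1 libraries, with LAMA5 taking most of the rest. The summed alpha-chain FPKM was 10.1 ± 0.142 and 10.5 ± 0.214 (SD, n = 3). For the beta chains, of which LAMB3 made up 74.5% to 77.4% in every library, it was 31.8 ± 0.748 and 33.5 ± 0.891. LAMC1, the main gamma chain measured, had a log2 fold change of -0.11 (adjusted p of 0.151 by edgeR). LAMA2, a chain of muscle and nerve, and LAMC3 were low, at -0.65 and -0.85 on the log2 scale (edgeR's adjusted p = 0.328 and 0.101). LAMC3 had 33, 33 and 40 counts in vector and 12, 26 and 18 in ELAPOR1 libraries, lower in all 3.

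The genes that fell encode a laminin receptor and heparan sulfate carriers. DAG1 (chromosome 3, 49468703 to 49535618, plus strand), which encodes dystroglycan, the cell-surface receptor for laminin, perlecan and agrin, had 159, 155 and 160 CPM in vector and 136, 128 and 127 CPM in ELAPOR1 libraries. The groups were apart, and the log2 fold change was -0.28 ± 0.04 (SE), with edgeR's adjusted p = 7.25e-08. AGRN (chromosome 1, 1020120 to 1056118, plus strand), which encodes agrin, a proteoglycan that binds dystroglycan and laminin, had 91.2, 95.9 and 90.9 CPM against 78.8, 75.5 and 81.1 CPM. It fell by 0.24 ± 0.05 (SE) on the log2 scale, with an adjusted p of 8.52e-05 by edgeR. COL18A1 (chromosome 21, 45405165 to 45513720, plus strand), the source of endostatin, had 129, 129 and 144 CPM against 114, 124 and 118 CPM, a log2 change of -0.17 ± 0.04 (SE) with edgeR's adjusted p = 0.00241. Without vector replicate 3, the highest library, the change of COL18A1 was -0.12 and it was no longer called (adjusted p = 0.0814 by edgeR). COL18A1 shares 1401 exonic bases in GENCODE 29 with SLC19A1 on the other strand, which had 3105 counts in all and a log2 fold change of -0.000536, while no gene with counts overlapped DAG1, AGRN, LAMA3 or PXDN.

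HSPG2, which encodes perlecan, had log2 fold changes of 0.08 (adjusted p of 0.254 by edgeR) and of 0.13 without vector replicate 1 (adjusted p of 0.0329). NID1, a nidogen linking laminin to collagen IV, had one of -0.11, FBLN1 one of 0.07, and FRAS1, which anchors epithelium to the layer beneath it, one of 0.02. TINAGL1, a matricellular protein, had 13.9, 13.7 and 14.7 FPKM in vector and 14.8, 15.1 and 15.2 FPKM in ELAPOR1 libraries, higher in each, at 0.11 ± 0.05 (SE) on the log2 scale with edgeR's adjusted p = 0.0998. In all, 10 of the 16 expressed members were not called, with log2 fold changes between -0.11 and 0.11, standard errors between 0.0436 and 0.0870 and adjusted p between 0.0916 and 0.817. Reads of overlapping genes may not be separable for LAMA5, LAMB1, TINAGL1 and HSPG2, whose overlapping genes with enough counts had log2 fold changes between -0.15 and 0.69. Of those only ADRM1, which shares 244 exonic bases with LAMA5 in GENCODE 29, was called, at -0.15 (edgeR's adjusted p = 0.0125). SERBP1P5, inside the span of FRAS1, shares 0 exonic bases with it and changed by 0.04.

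Apart from COL4A1 and PXDN, which were also under 1 FPKM in both groups, low members gave little information. SMOC1, a SPARC-related calcium-binding protein, had 18, 29 and 10 counts in vector and 3, 7 and 14 in ELAPOR1 libraries, with overlapping groups and an adjusted p of 0.118 by edgeR. FBLN2 and FREM2 differed by 0.62 and -0.76 on the log2 scale, with edgeR's adjusted p = 0.497 and 0.336. SPARC, a collagen-binding matricellular gene, had 4, 3 and 1 counts in vector libraries and 0 in each ELAPOR1 library. This is at least 2.50-fold lower when the ELAPOR1 group is set to a floor of 3 counts over the group. The exact 95% interval of the count ratio reaches up to 0.624 for counting error only, a smaller fall, and SPARC had too few counts for the test. EGFLAM had 5 counts in vector replicate 3 and none elsewhere. NID2 and NTN4 had 3 to 13 and 1 to 11 counts per library and did not pass the filter on low counts. The Wald test of the authors' deposited table gives them adjusted p = 0.998 and 0.676. NID2 shares 1915 exonic bases in GENCODE 29 with RTRAF on the other strand, which had 12792 counts in all. Reads of these 2 genes may not be separable.

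The enzymes and carriers that fold, modify and export collagen and laminin chains were mostly lower. Of 18 tested, 11 fell and 2 rose, with a median log2 fold change of -0.16, against 11.4% lower and 10.0% higher and a median of 0.00407 over all tested genes. PLOD2, a collagen lysyl hydroxylase, went from 25.5 ± 4.52 to 11.9 ± 3.41 CPM (log2 fold change -1.10), and P4HA1, a prolyl hydroxylase subunit, from 110.9 ± 8.76 to 73.2 ± 6.37 CPM (SD, n = 3 each). CRTAP, of the prolyl 3-hydroxylation complex, rose from 35.3 ± 1.82 to 51.96 ± 0.334 CPM. By edgeR the adjusted p of these 3 genes were 9.30e-12, 2.70e-15 and 1.29e-10. The hydroxylases of this list act on collagens in general and not on those of the basement membrane alone. The list also holds general folding proteins, and if folding genes outside it fell alike was not tested.

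Receptors of the basement membrane went both ways, with 3 of 14 tested higher and 5 lower (10.0% and 11.4% over all tested genes) and a median log2 fold change of -0.06. ITGA1, an integrin chain that binds collagen IV, rose from 2.44 ± 0.582 to 9.001 ± 0.896 CPM, by 1.89 on the log2 scale, and SDC4, a heparan sulfate proteoglycan of focal adhesions, fell from 118 ± 4.65 to 66.8 ± 2.36 CPM. LRP4, a receptor for agrin, rose by 0.30. The adjusted p of ITGA1, SDC4 and LRP4 were 6.78e-13, 7.99e-24 and 0.00392 by edgeR. ITGA6 and ITGB4, named after their values were seen because their proteins pair as the hemidesmosome receptor for laminins with LAMA3, changed in opposite directions, by -0.26 and 0.29 on the log2 scale, with adjusted p of 7.29e-11 and 3.65e-10 by edgeR.

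Enzymes that glycosylate dystroglycan had 2 of 16 tested members higher and none lower, near the 10.0% higher over all tested genes, with a median log2 fold change of -0.03. RXYLT1 changed by 0.25 on the log2 scale (edgeR's adjusted p = 0.0380). That call was lost without vector replicate 1 (adjusted p = 0.179), vector replicate 3 (0.0764) or ELAPOR1 replicate 1, 2 or 3 (0.0506, 0.184 and 0.0557).

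Heparan sulfate enzymes had 2 of 16 tested lower and none higher, near the 11.4% lower over all tested genes, with a median of -0.03. NDST1 and HS2ST1, which sulfate the chains, changed by -0.22 and -0.17 on the log2 scale, with adjusted p of 0.0199 and 0.00983 by edgeR. Without vector replicate 3 these were 0.154 and 0.0668, and without ELAPOR1 replicate 3 they were 0.207 and 0.139.

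Of 25 other matrix proteins of the basement membrane zone 13 were tested, of which 2 rose and 4 fell (10.0% and 11.4% over all tested genes), with a median log2 fold change of -0.14. VWA2 and VWA1, von Willebrand factor A domain proteins, changed by -0.46 and -0.43, with adjusted p of 1.17e-07 and 0.000451 by edgeR. MATN2, a matrilin, changed by 1.49 on the log2 scale, from 0.353 to 1.003 CPM, with edgeR's adjusted p = 0.0364. That call was lost when any library except vector replicate 2 was left out, the log2 value being 1.04 and the adjusted p = 0.217 without vector replicate 1. The adjusted p was 0.0739 without vector replicate 3 and 0.128, 0.0605 and 0.125 without ELAPOR1 replicates 1, 2 and 3.

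**Figure D5:**
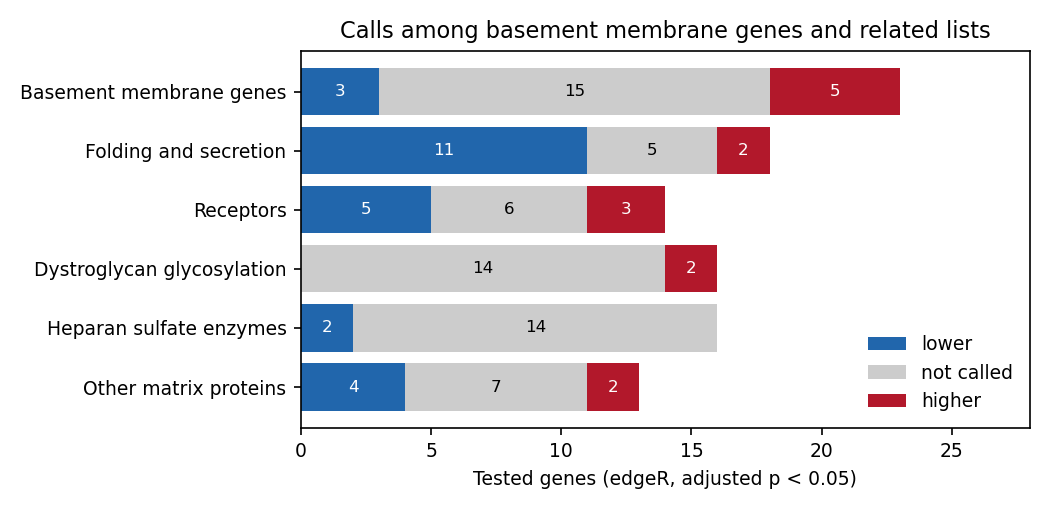
Number of tested genes called lower (blue), not called (grey) and higher (red) by edgeR among the basement membrane genes and 5 related lists. The folding and secretion list has 11 of 18 members lower, and the basement membrane genes have 5 of 23 higher and 3 lower.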

How the data were processed

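The submitters' processing notes list HTSeq 0.6.1, HISAT2 2.0.1 and cutadapt 1.9.1, besides DESeq2, and the build GRCh38. Poly(A) RNA was sequenced from 1 ug of total RNA per library. The deposited counts per gene are not normalized. The deposited FPKM values are counts per exonic length and library total, since each of 142222 nonzero entries lay within 0.011 of that calculation. The authors' deposited comparison table gives log2 fold changes, Wald statistics (scores), base means (normalized signal) and p-values. K columns were read as ELAPOR1, formerly KIAA1324, and NC columns as the vector control. The strand setting of the counting is not given in the sources used.

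The main test was edgeR's two-sided quasi-likelihood test (version 4.0.16, R 4.3.3) on genes kept by filterByExpr, with TMM scaling and Benjamini-Hochberg adjustment over the 16003 genes tested; it was first tested on simulated data. Standard errors were derived from the log2 change and its F statistic, and CPM values use TMM factors. Libraries of a group differed by more than sampling noise (mean chi-square per gene 2.45 to 3.64). Alternatives used DESeq2 1.42.0, limma 3.58.1, other scaling, filters and thresholds, and each library left out. The members and lists were chosen with earlier results of these data known. Members called, HMCN1, HMCN2, the collagen IV pairs and the 5 highest by vector FPKM are given by library. From each related list, up to 3 called genes with the largest change are named, except for 1 item that is not reported here. For 1 list gene with several rows, the row with the most counts was used. Of the promoter table, distinct windows were counted.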

Additional observations from a re-analysis of the deposited data

How the results depend on the processing

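The count of 3427 genes called, 5 members higher, 3 members lower and 31 members of the related lists was recomputed under each alternative. With limma on log2(FPKM + 1) these were 2133, 3, 2 and 18, with log2(FPKM + 0.1) 2098, 2, 2 and 19, and with log2(FPKM + 1) and no filter 1378, 4, 2 and 17; the cause was not tested. At an adjusted p under 0.01 they were 2245, 4, 3 and 22. Requiring also a log2 change of 1 or more they were 361, 3, 0 and 3, fewer by construction, as the largest fall of a called member was -0.28. With DESeq2's default they were 2364, 4, 3 and 22. Leaving out 1 library gave 2723 to 3187 genes, 4 to 6 members higher, 2 to 3 lower and 23 to 30 list members. The replicate block gave 3361, 5, 3 and 31 and changed no member's call; libraries with the same number had deviations that correlated at -0.0195, -0.0314 and -0.0202, so the numbers were not taken as a pairing. HMCN1, COL4A1, LAMA3, AGRN and DAG1 kept their calls in all alternatives that gave them a value except the fold threshold, which left only HMCN1, COL4A1 and PXDN; apart from that threshold COL4A2, COL18A1 and PXDN lost theirs in some (COL18A1 had adjusted p = 0.0699 with limma on log2(FPKM + 1)), and no called member changed sign. With limma and no filter PLOD2 and LRP4 also lost theirs (adjusted p = 0.0677 and 0.112). The log2 fold change of HMCN1 ran from 1.91 with log2(FPKM + 1), a pseudocount far above its vector level, to 8.84. Depth limits members under 1 CPM, where vector libraries held as few as 1 count of HMCN1.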
